A study of Homo sapiens with 12 samples.

Results

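Notch signaling was followed here through 9 genes in A375 human melanoma cells, namely the receptor genes NOTCH1, NOTCH2 and NOTCH3, the ligand genes JAG1, JAG2 and DLL1, the target genes HES1 and HEY1, and LFNG, whose enzyme modifies the receptors. They were chosen by name, with earlier results of these data known. Each was found at 1 locus, and they are 9 of the 31585 distinct gene loci measured. The cells were stably transduced with a retrovirus that carried either the empty vector MSCV-IRES-Hygro (Control) or 1 of 3 mutants of human YAP, with 3 libraries per group and 12 in all. YAP-S127A carries a mutation that keeps YAP out of reach of cytoplasmic sequestration, YAP-2SA (S127A,S381A) adds a mutation that spares it from degradation, and YAP-S94A,S127A carries S127A together with S94A, by which it no longer binds TEAD transcription factors. The condition field of the YAP-2SA libraries and the design text of the series also list S94A for this construct, but the library titles do not, and the titles were followed. All groups, Control included, were selected with hygromycin and grown on plastic, and each is 1 transduced population, so that the construct and any chance difference between populations cannot be told apart. The replicates were separately plated cultures of these populations, and p values measure only the spread between them.

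In Notch signaling, a ligand of the Jagged or Delta family on one cell binds a Notch receptor on its neighbor. The receptor is then cut by ADAM proteases and gamma-secretase, and its freed intracellular domain enters the nucleus, where it joins the DNA-binding protein RBPJ and a Mastermind coactivator. The genes switched on in this way include HES1 and HEY1, which encode repressors of transcription. In the melanocyte lineage, Notch signaling through HES1 is known to keep melanocyte precursors and stem cells alive.

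The values are FPKM, which scale the fragments of a transcript by its length and by the size of the library, and which the authors deposited as log2(FPKM + 1). They carry no read counts, so the depth behind each value is unknown. Differences were tested with limma over all 12 libraries and the 15055 loci that reached 1 FPKM in 3 or more of them. A gene was called where its p, adjusted after Benjamini and Hochberg over these loci, was under 0.05. A log2 fold change here is the difference between mean log2(FPKM + 1) values, and for genes of low level it is smaller than the log2 ratio of their FPKM. Of the 9 genes, 7 passed this filter, whereas JAG2 and DLL1 stayed below it in every group. YAP1 was at 34.1 and 33.0 FPKM in Control replicates 1 and 2 but at 172 FPKM in the library labelled Control replicate 3, inside the 130 to 187 FPKM of the libraries with a YAP construct. Results were therefore also computed without that library. Of 8 melanocyte lineage markers, 3 (SOX10, MITF and S100B) reached 1 FPKM in at least 3 libraries, DCT was at 0 in all Control and YAP-2SA libraries, and the sum of the list was between 281 and 345 FPKM in Control and between 39.6 and 49.8 FPKM in YAP-2SA libraries.

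The sequence of the HES1 promoter is shown because HES1 is the textbook target of RBPJ and had the largest difference among the 9 genes, and those of JAG1 and NOTCH2 because these genes moved in opposite directions in the same cells. Each run gives the 250 bases before the transcription start from RefSeq on GRCh38.p14, 5′ to 3′ on the strand of the gene. Capitals mark matches to the RBPJ letters GTGGGAA, their core TGGGAA and the TEAD letters GGAATG, searched on both strands. The windows are chr3:194135898-194136147 (plus strand) for HES1, chr20:10674000-10674249 (minus strand) for JAG1 and chr1:120069663-120069912 (minus strand) for NOTCH2.
HES1: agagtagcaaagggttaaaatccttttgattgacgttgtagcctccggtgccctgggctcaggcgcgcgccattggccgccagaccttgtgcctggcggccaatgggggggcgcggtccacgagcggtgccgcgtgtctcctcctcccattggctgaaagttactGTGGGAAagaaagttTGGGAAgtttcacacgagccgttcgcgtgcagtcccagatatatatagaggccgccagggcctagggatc
JAG1: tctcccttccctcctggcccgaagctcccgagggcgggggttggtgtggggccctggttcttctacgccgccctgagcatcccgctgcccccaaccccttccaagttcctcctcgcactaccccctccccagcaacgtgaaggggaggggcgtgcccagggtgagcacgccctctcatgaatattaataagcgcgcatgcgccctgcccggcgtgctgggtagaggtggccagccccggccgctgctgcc
NOTCH2: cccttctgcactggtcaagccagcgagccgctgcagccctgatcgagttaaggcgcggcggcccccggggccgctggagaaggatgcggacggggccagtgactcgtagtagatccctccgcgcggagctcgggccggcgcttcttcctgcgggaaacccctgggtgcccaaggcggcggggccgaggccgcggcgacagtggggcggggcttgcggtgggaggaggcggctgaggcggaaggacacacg

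The HES1 window holds 2 copies of TGGGAA, whose first letters lie 84 and 70 bases before the start, and the first of them is part of GTGGGAA. Of 35116 promoters of this length, 20.8% hold TGGGAA, 2.90% hold at least 2 copies of it, and 5.43% hold GTGGGAA. The GGAATG letters, held by 11.9% of the promoters, are in none of the 8 windows found for 7 of the 9 genes, and apart from HES1 only 1 of the 2 LFNG windows holds TGGGAA. These matches are letters in a sequence and not measured binding, and sequence outside the windows was not searched.

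In A375-YAP-2SA cells, HES1, HEY1 and JAG1 fell and NOTCH2 rose compared to Control cells. HES1 dropped to 5.51% of its Control level, HEY1 to 14.6% and JAG1 to 31.6%, while NOTCH2 reached 1.86 times its Control level. Of the 7 genes tested, 1 rose and 3 fell, where 42.3% of all loci changed (22.9% rose and 19.5% fell). The number of calls alone is thus not far from the background of this comparison. The 3 genes that fell also passed a fold threshold of 2, as did 7.86% of all loci in that direction. In A375-YAP-S127A cells NOTCH2 rose and JAG1 fell by less, 1 gene each of 7 against a background of 6.31% (4.56% higher and 1.75% lower), and in A375-YAP-S94A,S127A cells 0 of 7 passed the limma test (0 also at an unadjusted p under 0.05), against 0.179% of all loci. The plot of FPKM by library shows every value.

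**Figure D1:**
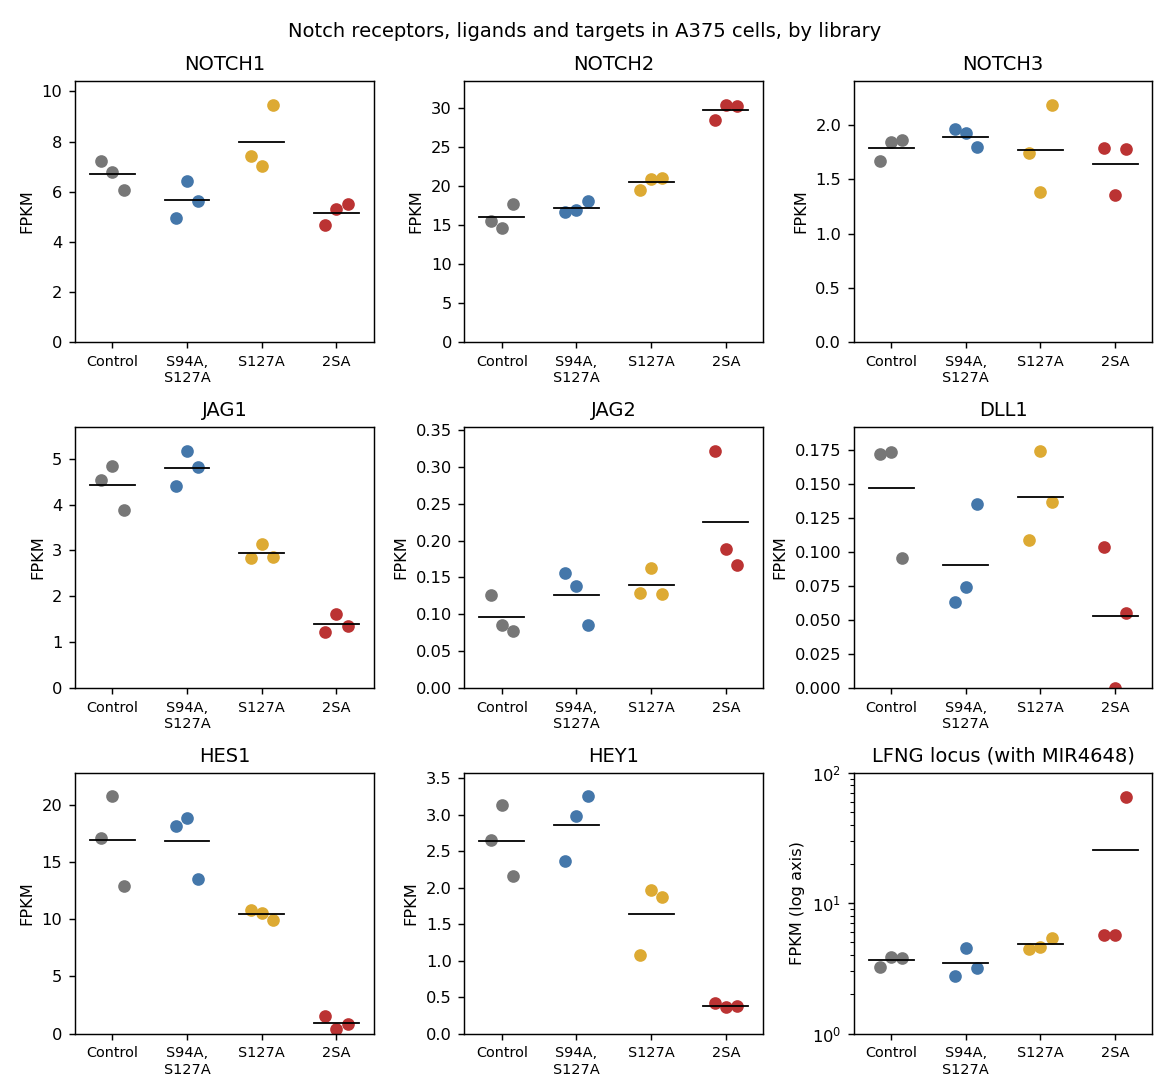
FPKM of the 9 genes (vertical axes; linear from 0, except for the LFNG locus, which has a log axis) in the 3 libraries of each group (horizontal axes); points are libraries and bars are group means. HES1, HEY1 and JAG1 are lowest and NOTCH2 highest in YAP-2SA, and 1 YAP-2SA library of the LFNG locus stands at 65.6 FPKM.

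Among the receptors, NOTCH2 had the highest level of the 3 in every group. NOTCH2 lies on the minus strand of chromosome 1 of GRCh37, from 120454176 to 120643366. It was at 15.6, 14.6 and 17.7 FPKM in the Control libraries, at 16.6, 16.9 and 18.1 FPKM in YAP-S94A,S127A, at 19.5, 20.9 and 21.0 FPKM in YAP-S127A and at 28.5, 30.4 and 30.3 FPKM in YAP-2SA. The YAP-S127A libraries were all above the Control and YAP-S94A,S127A libraries, which overlapped, and the YAP-2SA libraries were above all others. The log2 fold change of NOTCH2 against Control was 0.86 in YAP-2SA (standard error of 0.07 and adjusted p = 3.2e-06), 0.34 in YAP-S127A (adjusted p = 0.0159) and 0.10 in YAP-S94A,S127A (adjusted p = 1, 95% interval -0.05 to 0.26). NOTCH2 was also higher in YAP-2SA than in YAP-S127A cells (log2 fold change 0.52, adjusted p = 0.000246), and it differed by 0.24 between YAP-S127A and YAP-S94A,S127A cells, which missed the threshold (adjusted p = 0.0585) and passed it without the library labelled Control replicate 3 (adjusted p = 0.0269). The call in YAP-S127A against Control rested on single libraries, since its adjusted p was 0.0507 without Control replicate 1, 0.0620 without Control replicate 2 and 0.0537 without YAP-S127A replicate 3, and 0.124 when only the 6 libraries of these groups were fitted.

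NOTCH2 shares near-identical sequence with NOTCH2NL, a partial copy of it, and reads may be divided between them with less certainty. The locus that lists NOTCH2NL also lists several NBPF genes and cannot be assigned to any of them. It was between 94.9 and 103 FPKM in Control and between 109 and 131 FPKM in YAP-2SA libraries, 1.2 times as high on average (adjusted p = 0.0201).

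NOTCH1, on the minus strand of chromosome 9 of GRCh37 from 139388885 to 139440500, was at 7.21, 6.78 and 6.07 FPKM in the Control libraries, at 4.95, 6.44 and 5.63 FPKM in YAP-S94A,S127A, at 7.44, 7.04 and 9.47 FPKM in YAP-S127A and at 4.66, 5.32 and 5.52 FPKM in YAP-2SA. The 3 YAP-2SA values lay below the Control and YAP-S127A values, but the YAP-S127A and Control values overlapped. NOTCH1 was lower in YAP-2SA than in YAP-S127A cells, by -0.54 on the log2 scale with a standard error of 0.12 (adjusted p = 0.00568), whereas neither mutant differed from Control past the threshold, with log2 fold changes of -0.32 in YAP-2SA (adjusted p = 0.0526) and 0.22 in YAP-S127A (adjusted p = 0.359). The former passed the threshold in 4 of 15 alternatives, among them quantile normalization (adjusted p = 0.0224) and a fit of only the 6 libraries of these groups (adjusted p = 0.0368). NOTCH1 was higher in YAP-S127A than in YAP-S94A,S127A cells at an adjusted p of 0.0463, and this call was lost without YAP-S127A replicate 1 or 3, YAP-S94A,S127A replicate 1 or 3, or Control replicate 3, with adjusted p values of 0.0721, 0.128, 0.155, 0.126 and 0.0517. It was also lost with no filter on FPKM and when only these 6 libraries were fitted (adjusted p of 0.0731 and 0.131). The 2 receptors thus had opposite signs in YAP-2SA against YAP-S127A cells, each past the threshold.

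NOTCH3, on the minus strand of chromosome 19 of GRCh37 from 15269849 to 15311806, was low in all groups, with the 12 libraries between 1.36 and 2.19 FPKM. No group differed from another past the threshold. Its log2 fold change in YAP-2SA against Control was -0.08 with a 95% interval from -0.33 to 0.17.

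JAG1 was the only ligand of the 3 above 1 FPKM. It lies on the minus strand of chromosome 20 of GRCh37, from 10618332 to 10654647, and its promoter is given above. JAG1 was at 4.53, 4.84 and 3.89 FPKM in the Control libraries, at 4.40, 5.18 and 4.82 FPKM in YAP-S94A,S127A, at 2.83, 3.14 and 2.86 FPKM in YAP-S127A and at 1.23, 1.61 and 1.35 FPKM in YAP-2SA. The Control and YAP-S94A,S127A libraries overlapped, the YAP-S127A libraries were all below them, and the YAP-2SA libraries were below those. The log2 fold change of JAG1 against Control was -1.18 in YAP-2SA (standard error 0.09, adjusted p = 2.7e-06), -0.46 in YAP-S127A (adjusted p = 0.0162) and 0.10 in YAP-S94A,S127A (adjusted p = 1, 95% interval -0.11 to 0.31). Directly compared, JAG1 was lower in YAP-2SA than in YAP-S127A cells (-0.72, adjusted p = 0.000180) and lower in YAP-S127A than in YAP-S94A,S127A cells (-0.55, adjusted p = 0.00406). The call in YAP-S127A against Control was lost without Control replicate 1 or 2 or YAP-S127A replicate 1 or 3, with adjusted p values of 0.0505, 0.0706, 0.0594 and 0.0537, and its adjusted p was 0.0817 when only these groups were fitted.

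JAG2, on the minus strand of chromosome 14 of GRCh37 from 105607319 to 105635161, and DLL1, on the minus strand of chromosome 6 from 170591294 to 170615653, were too low to be tested. JAG2 was between 0.0777 and 0.127 FPKM in Control and at 0.322, 0.189 and 0.166 FPKM in YAP-2SA libraries, which did not overlap. Where loci were tested without a filter, JAG2 had an adjusted p of 0.0242 in YAP-2SA against Control, with a log2 fold change of 0.16. DLL1 was at 0.172, 0.174 and 0.0958 FPKM in Control and at 0.103, 0 and 0.0548 FPKM in YAP-2SA libraries, which overlapped. Values this far below 1 FPKM may rest on few reads, whose number the files do not give.

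LFNG encodes Lunatic fringe, a glycosyltransferase that adds a sugar to Notch receptors and shifts their response between Delta and Jagged ligands. It lies on the plus strand of chromosome 7 of GRCh37, from 2552163 to 2568811. The deposited locus lists LFNG together with MIR4648, a microRNA gene at 2566708 to 2566779 on the same strand, which is intronic in 5 of the 6 annotated LFNG transcripts and overlaps no LFNG exon. Its mature sequence from RefSeq is shown because the locus does not separate the 2 genes, with the seed (bases 2 to 8) in capitals.
hsa-miR-4648: uGUGGGACugcaaaugggag

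The LFNG locus was at 3.27, 3.86 and 3.82 FPKM in the Control libraries, at 2.77, 4.57 and 3.16 FPKM in YAP-S94A,S127A, at 4.46, 4.63 and 5.44 FPKM in YAP-S127A and at 5.67, 5.68 and 65.6 FPKM in YAP-2SA. All YAP-2SA libraries were above all others, but YAP-2SA replicate 3 was 11.6 times the mean of the other two. With that library, LFNG had a log2 fold change of 1.63 in YAP-2SA against Control with a standard error of 0.70 and an adjusted p of 0.0877. Without YAP-2SA replicate 3 the log2 fold change of LFNG was 0.52, with a standard error of 0.16 and an adjusted p of 0.0257, and the mean of the 2 libraries left was 1.56 times that of Control. Of the 109 tested loci that list a microRNA beside another gene, 20.2% had a library over 5 times both others of its group, against 1.5% of the other tested loci. The part of the microRNA in the value of YAP-2SA replicate 3 was not tested.

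HES1, on the plus strand of chromosome 3 of GRCh37 from 193853937 to 193856521, encodes a basic helix-loop-helix repressor. It was at 17.1, 20.7 and 12.9 FPKM in the Control libraries, at 18.1, 18.8 and 13.5 FPKM in YAP-S94A,S127A, at 10.8, 10.5 and 9.91 FPKM in YAP-S127A and at 1.54, 0.401 and 0.852 FPKM in YAP-2SA. The YAP-2SA libraries were far below all others, the YAP-S127A libraries lay between them and the Control libraries without overlap, and the YAP-S94A,S127A libraries overlapped with the Control libraries. The log2 fold change of HES1 in YAP-2SA was -3.23 against Control (standard error 0.22, adjusted p = 7.2e-07), -2.61 against YAP-S127A (adjusted p = 7.1e-06) and -3.23 against YAP-S94A,S127A (adjusted p = 6.8e-07). In YAP-S127A cells HES1 was at 61.7% of its Control level, which did not pass the threshold (log2 fold change -0.63, 95% interval -1.11 to -0.14, adjusted p = 0.139). Against YAP-S94A,S127A the adjusted p of YAP-S127A was 0.10, and it was 0.0408 when only these 6 libraries were fitted. Between YAP-S94A,S127A and Control cells the HES1 difference was 0.00 with a 95% interval from -0.48 to 0.49.

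HEY1 encodes a related repressor and lies on the minus strand of chromosome 8 of GRCh37, from 80674606 to 80680092. It was at 2.65, 3.13 and 2.16 FPKM in the Control libraries, at 2.36, 2.98 and 3.25 FPKM in YAP-S94A,S127A, at 1.08, 1.97 and 1.88 FPKM in YAP-S127A and at 0.416, 0.362 and 0.378 FPKM in YAP-2SA. The Control and YAP-S94A,S127A libraries overlapped, the YAP-S127A libraries were all below them, and the YAP-2SA libraries were below those. The log2 fold change of HEY1 was -1.39 in YAP-2SA against Control (standard error 0.15, adjusted p = 3.3e-05), -0.91 in YAP-2SA against YAP-S127A (adjusted p = 0.00104) and -0.47 in YAP-S127A against Control (95% interval -0.81 to -0.13, adjusted p = 0.110). HEY1 was lower in YAP-S127A than in YAP-S94A,S127A cells at an adjusted p of 0.0435, but this call was lost without YAP-S127A replicate 1 or 3 or YAP-S94A,S127A replicate 2 or 3 (adjusted p of 0.111, 0.0565, 0.111 and 0.151). It was also lost with a pseudocount of 0.1, with no filter on FPKM and when only these 6 libraries were fitted (adjusted p of 0.0556, 0.0658 and 0.121).

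**Figure D2:**
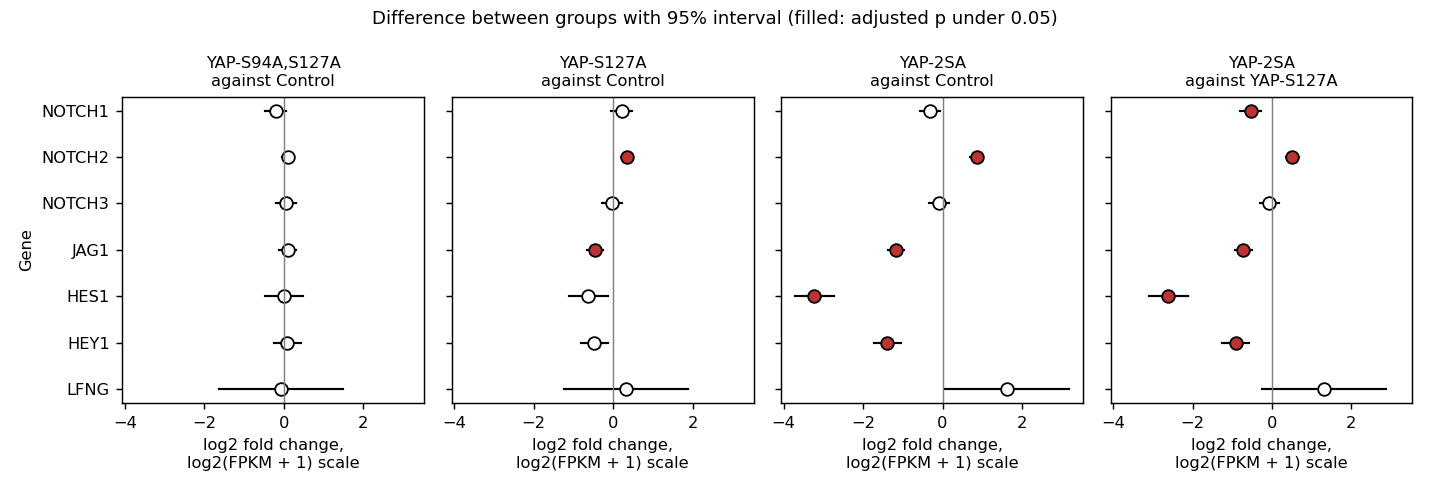
Log2 fold change on the log2(FPKM + 1) scale (horizontal axes) of the 7 tested genes (vertical axis) in 4 comparisons, one per panel; lines are 95% intervals and filled points have an adjusted p under 0.05. No point is filled for YAP-S94A,S127A against Control, and HES1 at -3.23 is farthest from 0 in YAP-2SA against Control.

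Between the mutants, 5 of the 7 genes tested differed in YAP-2SA against YAP-S127A cells, NOTCH2 upward and NOTCH1, JAG1, HES1 and HEY1 downward, where 32.8% of all loci did (18.3% higher and 14.5% lower). YAP-S127A and YAP-S94A,S127A cells, which differ in the S94A mutation, differed in NOTCH1, JAG1 and HEY1, 3 of 7 against 10.7% of all loci (6.36% higher and 4.31% lower). Of these calls, that of NOTCH1 was lost in 8 of 16 alternatives and that of HEY1 in 7 of 15. YAP-2SA against YAP-S94A,S127A gave the 4 calls of YAP-2SA against Control, with NOTCH2 up and JAG1, HES1 and HEY1 down, against 43.5% of all loci (23.2% higher and 20.3% lower). JAG1, HES1 and HEY1 passed the fold threshold of 2 in both comparisons with YAP-2SA, as did 5.94% of all loci, in that direction, against YAP-S127A and 8.10% against YAP-S94A,S127A. These comparisons share libraries, and their counts are therefore not independent of each other. Without the library labelled Control replicate 3, the counts in YAP-2SA against Control remained at 1 gene higher and 3 lower, and those in YAP-S127A against Control at 1 higher and 1 lower. In YAP-S94A,S127A against Control the count stayed at 0, with 1 gene at an unadjusted p under 0.05. The shares of all loci without that library are not given, so these counts are set only beside those with all libraries.

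The genes whose values over the 12 libraries were most like those of the called genes were found by Pearson correlation, which here mostly follows the difference between the groups and is a description. For HES1 they were FAM108B1, LINC00326 and DOCK4 (r from 0.990 to 0.992), for HEY1 TOP1, TLR4 and STX1A (0.987 to 0.988) and for JAG1 TLR4, RAB14 and IGFBP3 (0.988 to 0.989). For NOTCH2 they were TEAD3, the locus of AEBP1 and MIR4649, and DENND3 (0.988 to 0.990), and for NOTCH1 they were LMNA, LOC285033 and NGFR (0.936 to 0.949).

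The remaining Notch pathway was described with a list of 62 genes, of which 55 were tested. In A375-YAP-2SA cells 16 of these rose and 17 fell compared to Control cells, where 22.9% of all loci rose and 19.5% fell, and their median log2 fold change was 0.01, as was that over all loci. In YAP-S127A cells 4 rose and 0 fell (9 had an unadjusted p under 0.05 in limma), where 4.56% of all loci rose and 1.75% fell, and in YAP-S94A,S127A cells 0 changed (1 at an unadjusted p under 0.05). Without the library labelled Control replicate 3, 14 rose and 16 fell in YAP-2SA among the 54 then tested. The shares of all loci without that library, and at an unadjusted p, are not given, so these counts cannot be set against a background. Of the 16 that rose with all libraries, HES2, DNER and DTX4 passed the filter only through the YAP-2SA libraries, so that they were tested because they were high there. In the same way, HES4 passed it only through the YAP-S127A and YAP-2SA libraries. The plot of the pathway genes gives the list by role.

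**Figure D3:**
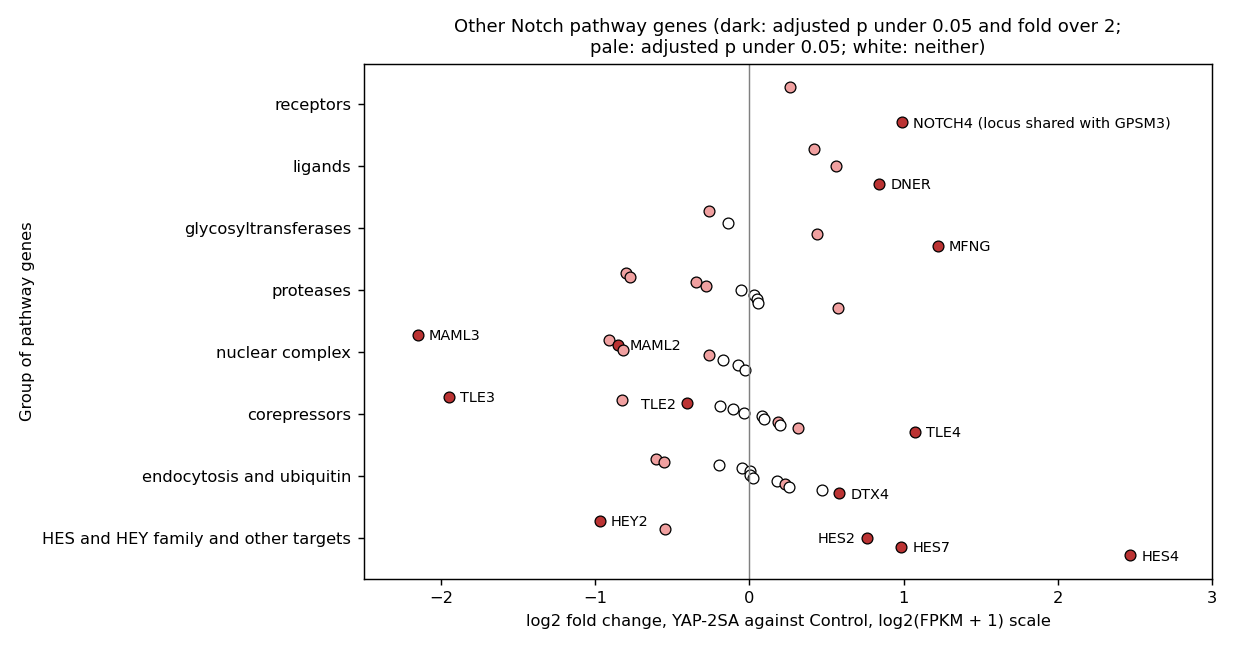
Log2 fold change of 55 other Notch pathway genes in YAP-2SA against Control (horizontal axis) by role (vertical axis), where the vertical position within a role has no meaning. Dark points passed an adjusted p of 0.05 and a fold of 2, pale points only the former; HES4 lies at 2.47 and MAML3 at -2.15.

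Of the 8 genes of the nuclear complex, 5 fell, 0 rose and 3 did not pass the test in YAP-2SA cells, against 19.5% of all loci that fell and 22.9% that rose. MAML3, a Mastermind coactivator, was at 6.89, 6.49 and 7.36 FPKM in Control and at 0.959, 0.728 and 0.666 FPKM in YAP-2SA libraries, 11.3% of the Control level (log2 fold change -2.15, adjusted p = 5.3e-08). RBPJ, the DNA-binding partner of all Notch receptors, was at 38.2 ± 1.74 FPKM in Control and fell to 19.9 ± 1.12 FPKM in YAP-2SA cells (SD, n = 3 each), a change tested with limma (log2 fold change -0.91, adjusted p = 4.2e-06). MAML1, MAML2 and the acetyltransferase gene KAT2B also fell, and MAML2 passed the fold threshold of 2 with the library labelled Control replicate 3 (ratio 0.489) but not without it (0.525). EP300, CREBBP and SNW1 had log2 fold changes between -0.17 and -0.03 and did not pass the test. In YAP-2SA against YAP-S94A,S127A cells, RBPJ and KAT2B were also past the fold threshold of 2, with ratios of 0.480 and 0.472.

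Of the proteases that process Notch, FURIN (-0.80) and ADAM10 (-0.77) fell, as did the gamma-secretase genes PSEN2 (-0.35) and NCSTN (-0.28), and APH1B rose (0.57). ADAM17, APH1A and PSENEN had log2 fold changes between -0.06 and 0.05 and did not pass the test. Among the glycosyltransferases, the locus that lists MFNG (Manic fringe) together with CARD10, and cannot be assigned to either gene, rose to 17.7 ± 1.21 FPKM (SD, n = 3) from 7.06 ± 1.07 FPKM (SD, n = 3) in Control (log2 fold change 1.22, adjusted p = 2.9e-05 from limma) and was also higher in YAP-S127A (log2 fold change 0.72, adjusted p = 0.00883). RFNG rose and POGLUT1 fell with log2 fold changes of 0.44 and -0.26. The loci of RFNG, PSENEN, MAML1 and EP300 also list another gene or transcript each.

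The receptor gene NOTCH4 was listed at 7 loci, of which the locus with the highest mean was used. That locus also lists GPSM3 and cannot be assigned to either gene. It was 2.15 times as high in YAP-2SA as in Control cells (log2 fold change 0.99, adjusted p = 7.8e-06). Of the other ligand genes, the noncanonical ligand gene DNER (3.25 times), DLK2 (1.58 times) and DLL3 (1.48 times) rose in YAP-2SA cells, where 22.9% of all loci did. CNTN1, DLK1 and DLL4 were below the filter, and DNER was tested because it was high in YAP-2SA libraries.

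Of the 12 corepressor genes, 3 rose and 3 fell, which is near the 22.9% and 19.5% of all loci. TLE3, a Groucho-family corepressor that HES proteins recruit, was at 6.35, 5.05 and 4.93 FPKM in Control and at 0.801, 0.626 and 0.568 FPKM in YAP-2SA libraries (log2 fold change -1.95, adjusted p = 6.5e-08). Its relative TLE4 went from 25.8, 22.9 and 23.9 FPKM to 50.6, 52.6 and 52.8 FPKM (log2 fold change 1.07, adjusted p = 6.6e-08). TLE2 fell at an adjusted p of 0.0450, with Control libraries at 0.714, 0.572 and 1.07 FPKM, and was not tested without the library labelled Control replicate 3. Among genes of endocytosis and ubiquitin transfer, DTX4 and NUMBL rose, MIB2 and DTX1 fell, and 8 of 12 did not pass, where 22.9% of all loci rose and 19.5% fell. DTX4 was tested because it was high in YAP-2SA libraries.

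Members of the HES and HEY family did not move together, as the plot of that family shows. HES4 was at 0.627, 0.711 and 0.490 FPKM in the Control libraries, at 0.867, 0.875 and 0.842 FPKM in YAP-S94A,S127A, at 2.09, 1.78 and 1.84 FPKM in YAP-S127A and at 7.06, 10.2 and 6.85 FPKM in YAP-2SA. It rose in YAP-2SA (13.2 times the Control level, log2 fold change 2.47, adjusted p = 8.4e-08) and in YAP-S127A (3.13 times, log2 fold change 0.85, adjusted p = 0.00245), and it was the only 1 of the 55 genes past both thresholds in the latter. HES4 was also higher in YAP-S127A than in YAP-S94A,S127A cells (log2 fold change 0.64, adjusted p = 0.00969). Its Control and YAP-S94A,S127A libraries were all below 1 FPKM, so that it was tested because it was high in YAP-S127A and YAP-2SA libraries. The group means of HES4 and HES1 thus had opposite orders, in which those of Control and YAP-S94A,S127A did not differ past the threshold for either gene.

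HEY2 fell with HEY1, from 1.08, 0.848 and 1.26 FPKM in Control to 0.0295, 0.0548 and 0.0740 FPKM in YAP-2SA libraries (log2 fold change -0.97, adjusted p = 0.000361). HES7 (3.13 times) and HES2 (2.66 times) rose in YAP-2SA cells from levels near 1 FPKM, while HES6, whose product opposes HES1, fell to 63.8% of its Control level. HES2 was tested because it was high in YAP-2SA libraries. HES5, HEYL and the feedback gene NRARP were below the filter, and HEYL was listed at 0 in all libraries.

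**Figure D4:**
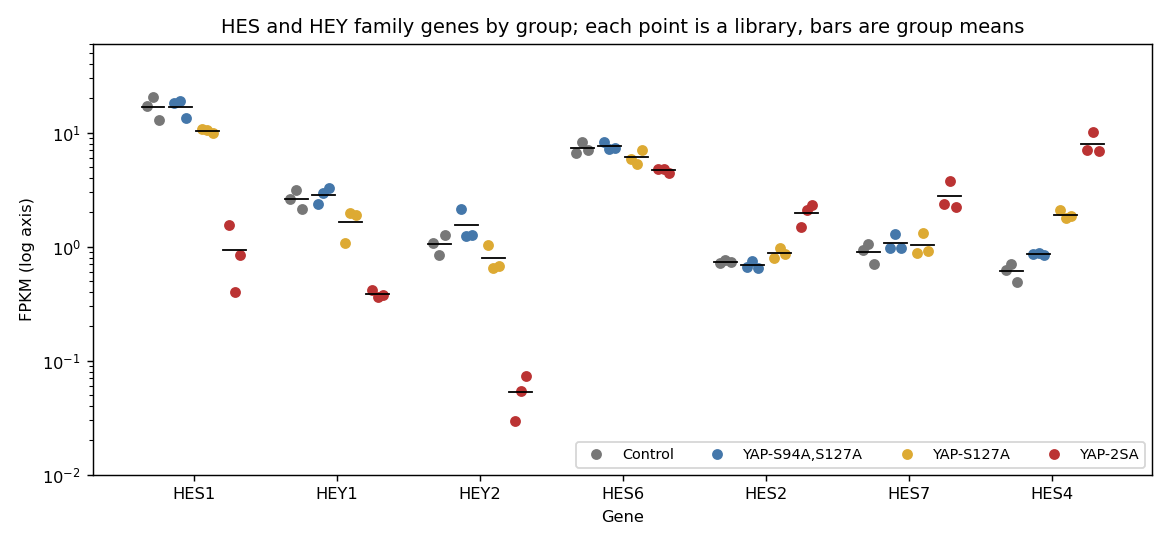
FPKM on a log axis (vertical) of 7 HES and HEY family genes (horizontal axis) by group; points are libraries and bars are group means. In YAP-2SA libraries HES1, HEY1 and HEY2 are lowest of the groups and HES4 is highest, at 6.85 to 10.2 FPKM.

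Markers of cell identity moved in the same libraries as HES1, HEY1 and JAG1. Of the melanocyte lineage markers, SOX10 was at 263 ± 25.6 FPKM in Control and at 6.16 ± 1.44 FPKM in YAP-2SA cells (SD, n = 3 each), and S100B at 46.9 ± 5.22 and 0.807 ± 0.211 FPKM, while MITF rose to 4.08 times its Control level. In YAP-S127A cells SOX10 was at 224 ± 33.7 FPKM (SD, n = 3). The sum of 5 fibroblast markers was between 3.81 and 6.05 FPKM in Control, between 13.4 and 14.9 FPKM in YAP-S127A and between 42.8 and 50.2 FPKM in YAP-2SA libraries. COL1A1 rose from 0.322 to 33.4 FPKM on average in YAP-2SA cells, and 3 of the 5 reached 1 FPKM in at least 3 libraries. The locus that lists PDGFRB also lists CSF1R and PDGF and cannot be assigned to any of them. It rose from 2.61 to 10.4 FPKM, and LUM from 1.38 to 2.30 FPKM. Below the filter, COL1A2 went from 0.0276 to 0.366 FPKM, while DCN fell from 0.461 to 0.178 FPKM. The sum of 5 keratinocyte markers was between 30.1 and 33.2 FPKM in Control and between 23.4 and 30.3 FPKM in YAP-2SA libraries, most of it from KRT10. Within it KRT14 fell from 6.87 to 0.434 FPKM on average (adjusted p = 3.8e-07 from limma) and KRT5 rose from 0.0282 to 1.56 FPKM. KRT5 passed the filter only through the YAP-2SA libraries, so that it was tested because it was high there. None of 6 endothelial and 5 leukocyte markers reached 1 FPKM in 3 libraries, and their sums stayed at or below 1.56 and 0.727 FPKM. The part of these shifts in the values of the Notch genes was not tested, and in bulk RNA fewer cells of a type and less RNA per cell cannot be told apart.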

How the data were processed

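RNA-seq of 12 A375 libraries, 3 for each of 4 groups, was used. The authors aligned reads to hg19 with Bowtie2 2.0.0 and TopHat2 2.0.4 and summarized transcripts with Cufflinks 2.0.2 (versions from the submitters' processing notes), and the deposited table holds log2 of FPKM + 1 per locus and library, without counts. Of 31588 entries, 3 identical ones were removed. Groups were taken from sample titles.

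From the deposited values, 6 pairwise comparisons of the groups were made with limma 3.58.1 (R 4.3.3) in a joint model of the 12 libraries, with the trend of variance with level taken into account, for the 15055 loci that reached 1 FPKM in 3 or more libraries. Ratios are of group mean FPKM. A stricter call also required a ratio over 2. The fit was tested on simulated data. A gene symbol was matched to loci by splitting their symbol lists at commas, and the locus with the highest mean was used. Named genes were the 9 Notch genes, genes of a fixed pathway list past the stricter call in any comparison, YAP1, and the 3 loci most correlated with each called gene. The proteases and other pathway genes with smaller changes were named after their values were seen. The members and lists were chosen with earlier results of these data known. Gene coordinates come from GENCODE on GRCh37, and promoter and microRNA sequences from RefSeq on GRCh38.p14, where 7 of the 9 genes were matched. Alternatives were another pseudocount (0.1), other filters, quantile normalization, median-ratio scaling, a fit of the libraries compared, a replicate block, no trend, summed loci and each library left out. Leaving Control replicate 3 out of comparisons that do not hold it was added after seeing the data. Figures were drawn with matplotlib 3.10.9.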

Additional observations from a re-analysis of the deposited data

How the results depend on the processing

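Of 633 values of the 7 tested Notch genes recomputed under other settings, 586 kept their direction and their side of the threshold, 24 lost and 13 gained a call, and 10 changed sign, none of them called. The calls of HES1, HEY1, JAG1 and NOTCH2 in YAP-2SA against Control held in every alternative run for them. With a pseudocount of 0.1, 1 gene was lower in YAP-S127A against YAP-S94A,S127A. With no filter on FPKM, 2 were higher in YAP-2SA against Control, and 0 were higher and 1 lower in YAP-S127A against YAP-S94A,S127A. With FPKM of at least 5, JAG1 and HEY1 were no longer tested, and the genes lower were 1 in YAP-2SA against Control, 0 in YAP-S127A against Control, 2 in YAP-2SA against YAP-S127A, 0 in YAP-S127A against YAP-S94A,S127A and 1 in YAP-2SA against YAP-S94A,S127A. With only the libraries compared, 0 were higher and 0 lower in YAP-S127A against Control, and 0 were higher in YAP-S127A against YAP-S94A,S127A. With each library left out in turn, genes higher ranged from 1 to 2 in YAP-2SA against Control and against YAP-S94A,S127A and from 0 to 1 in YAP-S127A against either, and genes lower from 0 to 1 in YAP-S127A against Control and from 1 to 2 in YAP-S127A against YAP-S94A,S127A. In the same way, in YAP-S94A,S127A against Control HES1 ranged from -0.17 to 0.16, HEY1 from -0.013 to 0.18 and LFNG from -0.23 to 0.053 (log2), and NOTCH3 ranged from -0.13 to 0.082 in YAP-S127A against Control, from -0.18 to 0.031 in YAP-S127A against YAP-S94A,S127A and from -0.17 to 0.043 in YAP-2SA against YAP-S127A. Quantile normalization gave HES1 -0.0138 in YAP-S94A,S127A against Control. Apart from the filters, which change the genes tested, the cause was not tested. Calls over all loci went from 950 to 447 with only the libraries compared and 615 without Control replicate 2 in YAP-S127A against Control, from 27 to 16 without Control replicate 2 and 17 without YAP-S94A,S127A replicate 1 in YAP-S94A,S127A against Control, and from 1607 to 1066 with only the libraries compared and 1019 and 955 without YAP-S94A,S127A replicate 1 and 3 in YAP-S127A against YAP-S94A,S127A. Replicate numbers did not pair the libraries, since correlations between the deviations of same-numbered libraries ranged from -0.149 to 0.163, 2 of 18 exceeded 0.1, and 5 of 12 libraries correlated best with their own number. With a replicate block, NOTCH1 in YAP-S127A against YAP-S94A,S127A kept 0.43 with an adjusted p of 0.0581 and NOTCH2 kept 0.24 with an adjusted p of 0.0337 from limma, and no count of the Notch genes changed. Depth is unknown, which limits what can be said of JAG2 and DLL1.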
